A study of Homo sapiens with 36 samples.

Results

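The genes described here make cholesterol and fatty acids, or control that synthesis. They were chosen as a list of 33 genes from known function: 6 of the mevalonate steps, 11 of the steps that lead through squalene to cholesterol, 6 regulators and sterol carriers, and 10 of fatty acid and lipid synthesis. Of the 33, 31 could be read from a transcript cluster of the array that carried that gene symbol alone, among 18417 genes read in the same way. FDFT1 was not named in the annotation used here, and HSD17B7 was named only on a cluster shared with its pseudogene HSD17B7P2, so neither has a value below. The members were chosen without using any measured value, but with earlier results of these data known.

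The study asked how long exposure to cigarette smoke extract (CSE) changes alveolar epithelial cells. A549, an established human lung adenocarcinoma line often used as a model of the alveolar epithelium, was cultured with CSE at 1%, 5% or 10% for 1, 3 and 5 weeks, and unexposed A549 cells were cultured for the same times as controls. The extract was smoke drawn through serum-free medium, with that solution taken as 100%, and it was renewed every day in medium holding 1% serum, after a day without serum. RNA was hybridised to Affymetrix Human Gene 1.0 ST arrays in 3 individual experiments, which gives 36 arrays in 12 groups of 3. All groups are of the same cell line, so the spread between arrays is that of cultures and not of people. The control arrays named 5 weeks were grouped by their titles, although other labels of replicates 1 and 2 of that group say 3 weeks. The comparisons of CSE with control at 5 weeks are given against those arrays and also against the control arrays of weeks 1 and 3. This was done because of these labels, and because the 5-week controls were known from earlier results of these data to stand apart.

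Cells keep their sterol level by feedback. The transcription factors SREBP1 and SREBP2, encoded by SREBF1 and SREBF2, are held in the endoplasmic reticulum by the escort protein SCAP and by the INSIG proteins when sterols are plentiful, and travel to the Golgi to be cleaved and activated when sterols are scarce. Active SREBP2 mainly drives the mevalonate and cholesterol genes, SREBP1 mainly those of fatty acids, and INSIG1 is itself a target of both. In the alveolus type II cells use this lipid synthesis to build surfactant. The pathway starts from acetyl-CoA, which ACLY makes from citrate and ACSS2 from acetate.

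Promoters of these genes usually carry several short motifs next to each other, and 6 of them are printed because these genes describe the range of what was measured: INSIG1, HMGCS1, FDPS and EBP were lower with CSE at 5% and 10% at 1 week, while INSIG2 and ELOVL6 were not lower in any comparison with control. Each run holds the 250 bases before the start of the gene, 5′ to 3′ on the strand of the gene, from RefSeq on build GRCh38.p14. The capitals mark matches, on either strand, to CCAAT (the box bound by NF-Y), GGGCGG (the GC box bound by SP1), CACGTG (an E-box) and TCACNCCAC (the core of the classical sterol regulatory element). INSIG1 lies at chr7:155297628-155297877 (plus strand), HMGCS1 at chr5:43313413-43313662 (minus strand), FDPS at chr1:155308616-155308865 (plus strand), EBP at chrX:48521558-48521807 (plus strand), INSIG2 at chr2:118088221-118088470 (plus strand) and ELOVL6 at chr4:110198616-110198865 (minus strand).
INSIG1: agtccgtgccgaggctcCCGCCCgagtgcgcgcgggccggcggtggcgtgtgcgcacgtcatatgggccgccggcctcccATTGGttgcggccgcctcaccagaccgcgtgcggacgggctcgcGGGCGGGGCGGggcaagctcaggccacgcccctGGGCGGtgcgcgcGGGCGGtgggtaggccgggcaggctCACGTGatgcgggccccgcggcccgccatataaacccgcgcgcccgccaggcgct
HMGCS1: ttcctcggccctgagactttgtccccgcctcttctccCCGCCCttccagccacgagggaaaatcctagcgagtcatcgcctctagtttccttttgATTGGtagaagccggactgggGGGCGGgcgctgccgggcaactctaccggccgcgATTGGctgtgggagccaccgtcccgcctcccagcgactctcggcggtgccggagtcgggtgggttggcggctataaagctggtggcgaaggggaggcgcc
FDPS: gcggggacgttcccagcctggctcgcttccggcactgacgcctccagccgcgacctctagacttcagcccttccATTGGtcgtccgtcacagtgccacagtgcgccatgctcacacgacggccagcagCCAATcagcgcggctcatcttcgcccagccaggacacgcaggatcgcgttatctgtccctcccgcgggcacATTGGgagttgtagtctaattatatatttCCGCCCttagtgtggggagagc
EBP: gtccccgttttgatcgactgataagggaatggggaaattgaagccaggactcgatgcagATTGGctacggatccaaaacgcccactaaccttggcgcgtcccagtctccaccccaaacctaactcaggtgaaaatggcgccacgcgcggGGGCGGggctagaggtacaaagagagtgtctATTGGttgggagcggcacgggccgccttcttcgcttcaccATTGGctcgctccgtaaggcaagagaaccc
INSIG2: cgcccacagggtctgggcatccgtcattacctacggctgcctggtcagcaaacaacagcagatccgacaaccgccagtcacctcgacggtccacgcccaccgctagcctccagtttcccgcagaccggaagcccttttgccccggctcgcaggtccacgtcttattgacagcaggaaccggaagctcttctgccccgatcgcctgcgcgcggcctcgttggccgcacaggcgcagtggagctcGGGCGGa
ELOVL6: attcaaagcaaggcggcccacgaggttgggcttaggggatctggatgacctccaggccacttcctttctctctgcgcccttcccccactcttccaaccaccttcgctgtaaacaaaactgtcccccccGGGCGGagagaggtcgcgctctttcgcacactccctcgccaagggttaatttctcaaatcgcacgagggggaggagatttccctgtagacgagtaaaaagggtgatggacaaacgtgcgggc

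In these windows, CCAAT or its reverse was found 3 times for FDPS, 3 times for EBP, 2 times for HMGCS1 and 1 time for INSIG1, and not for INSIG2 or ELOVL6. INSIG1 held 5 GC boxes, some of them overlapping, and also 1 E-box. A promoter entry was matched for 29 of the 31 members. CCAAT was found in 17 of these 29 (58.6%), against 33% of all 27305 promoters of the same length, the GC box in 27 (93.1%, against 42.3%), the E-box in 3 (10.3%, against 6.49%) and TCACNCCAC in 1, SREBF2 (3.45%, against 0.875%). The 6 printed genes were picked by their direction, and CCAAT did not part the members in this way. PMVK, SCAP, CYP51A1, IDI1, FADS1, FADS2, AACS, SREBF1 and ACACA held none and were lower with CSE 10% at 1 week. SC5D, SREBF2 and STARD4 held it and were not called there, while the other members that held it were lower. These matches describe the letters of the windows and say nothing of binding in these cells.

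The arrays carried RNA of epithelial cells. KRT8, KRT18, KRT19, CDH1 and EPCAM were above the median of all clusters on 36 of 36 arrays, and of 8 markers of blood, endothelial and stromal cells, PTPRC, CD3E, PECAM1, CDH5 and DCN were above it on 0 arrays, COL1A2 on 3, and CD68 and COL1A1 on 36. Of 8 markers of alveolar type II cells read, SFTPD and ABCA3 were above the median on every array, and SFTPB, SFTPC, NKX2-1, LAMP3, NAPSA and SLC34A2 were below it on every array, so 6 of these 8 defining markers were at a low level. The epithelial markers moved with CSE 10%: 4 of the 5 were lower at 1 week, where their mean log2 value lay between 11.15 and 11.24 on the CSE 10% arrays and between 11.46 and 11.48 on the control arrays, and 3 of the 5 were lower at 3 weeks (11.18 to 11.22, against 11.42 to 11.51). Their part in the results below was not tested. With CSE 5% at 1 week none of the 5 was called in either direction (11.47 to 11.54, against the same controls). With CSE 1% the mean of these markers lay above that of the controls, at 11.65 at 1 week and 11.64 to 11.72 at 3 weeks. At 5 weeks it lay between 11.06 and 11.09 with CSE 5% and between 10.67 and 10.77 with CSE 10%, against 11.31 to 11.44 in the 5-week controls. The values are log2 RMA values, and a difference of 1 means a fold of 2. The control arrays of 5 weeks were narrower in their values (SD over clusters 2.15 to 2.21) than the other 33 arrays (2.25 to 2.31).

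At 1 week most of the sterol and fatty acid genes were lower in cells exposed to 5% or 10% CSE. With CSE 10%, 25 of the 31 members were lower (11.3% of all genes were lower in that comparison) and none was higher (11.6% of all genes), with a median log2 fold change of -0.71 over the members, against -0.024 over all genes. With CSE 5%, 20 of 31 were lower (6.12% of all genes) and none higher (8.85%), with a median of -0.69. The deepest falls with CSE 10% were those of SCD, to 32.2% of the control level, DHCR7, to 32.7%, EBP, to 35.8%, and FDPS, to 39.3%. By the rule of the study, a log2 fold change beyond 1 with a B statistic above 0, 10 members were lower with CSE 10% (1.27% of all genes) and 8 with CSE 5% (0.733%). A call otherwise means an adjusted p under 0.05 in limma, with Benjamini-Hochberg adjustment over all 33297 clusters. The 3 concentrations of a week share their control arrays, so their values are given side by side. In RNA of whole cultures, fewer cells that express a gene and less of its RNA in each cell cannot be told apart.

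**Figure D1:**
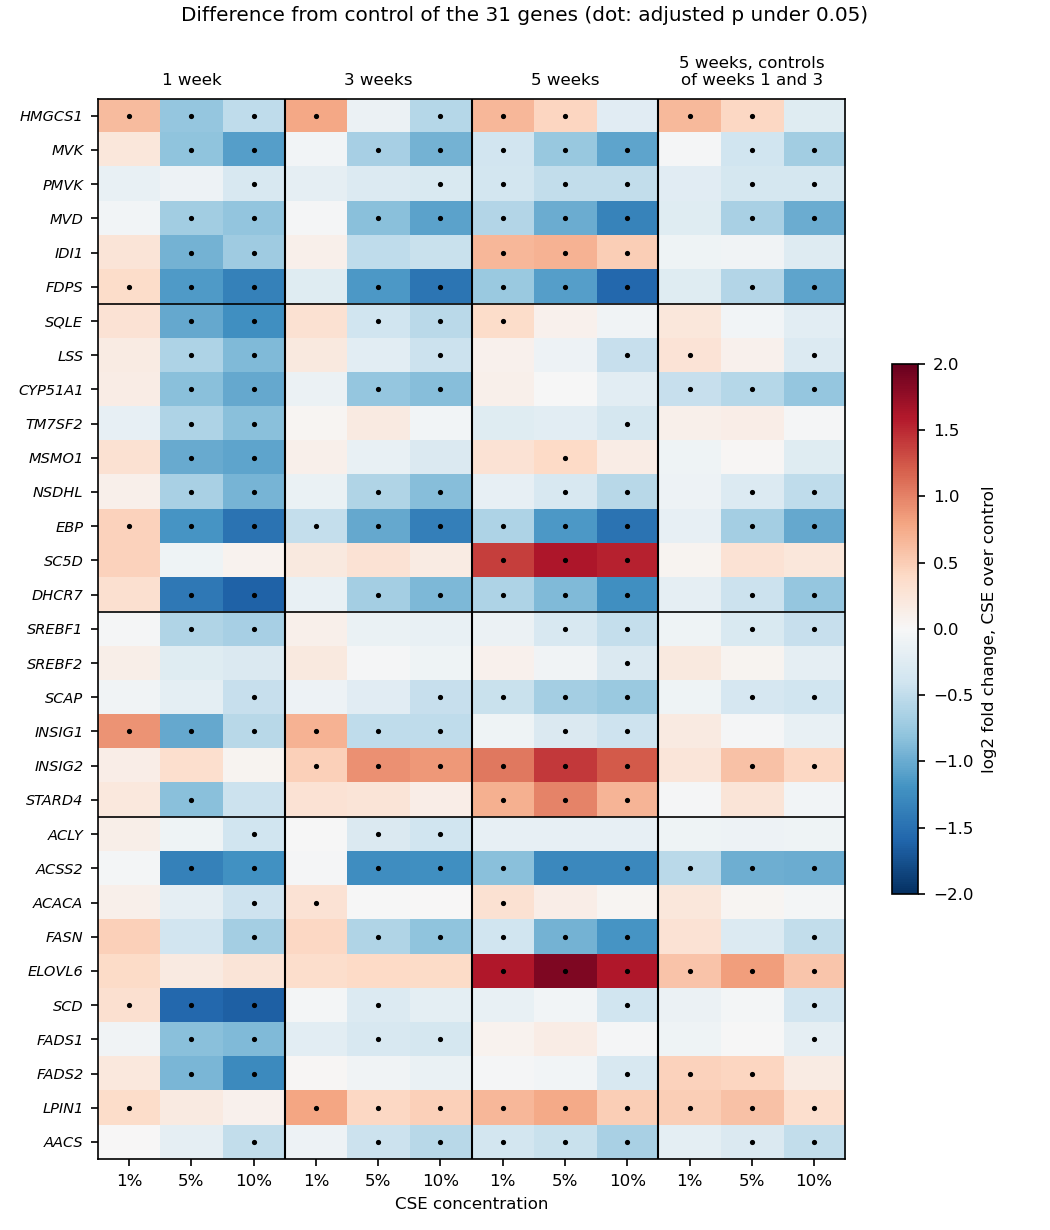
Difference from control of each of the 31 genes (rows, grouped by role with lines between groups: mevalonate steps, squalene to cholesterol, regulators and sterol transport, fatty acids and lipids) at each CSE concentration (columns, low to high) at 1, 3 and 5 weeks, and at 5 weeks also against the controls of weeks 1 and 3. Colour gives the log2 fold change of CSE over control, blue for lower and red for higher, and a dot marks an adjusted p under 0.05. The columns of 5% and 10% at 1 week are mostly blue, with 20 and 25 genes called lower.

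The mevalonate steps make the isoprenoid building blocks from acetyl-CoA. With CSE 10% at 1 week all 6 genes were lower (11.3% of all genes), with a median log2 fold change of -0.75. At 3 weeks 5 of the 6 were lower (15.5% of all genes). FDPS, which joins these blocks to farnesyl diphosphate, the branch point to sterols and to protein prenylation, had log2 values of 7.98, 7.96 and 7.76 with CSE 10% at 1 week, against 9.31, 9.23 and 9.21 in the controls. At 3 weeks FDPS stood at 8.53, 8.49 and 8.59 with CSE 10%, against 10.00, 10.04 and 9.97 in controls. The exposed arrays lay more than 1 log2 unit below every control array at both times, with differences of -1.35 ± 0.0971 (SE, adjusted p = 1.47e-11, limma) and -1.47 ± 0.0971 (adjusted p = 2.53e-12). FDPS was also named on 2 clusters shared with a pseudogene, FDPSP2, which were not used.

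MVK, the mevalonate kinase, read 7.03, 7.03 and 6.83 with CSE 10% at 1 week, against 8.13, 7.92 and 8.13 in controls, a log2 fold change of -1.10 (adjusted p = 1.85e-09, limma). MVD, which removes the carboxyl group to give isopentenyl diphosphate, read 8.43, 8.34 and 8.36 with CSE 10% at 3 weeks, against 9.46, 9.60 and 9.29 in controls. Its log2 fold changes with CSE 10% were -0.78 at 1 week and -1.07 at 3 weeks, and those of MVK were -1.10 and -0.94. For neither gene did the exposed arrays overlap the control arrays. PMVK, the kinase that acts after MVK and before MVD, differed least: its log2 fold change with CSE 10% was -0.33 at 1 week (adjusted p = 0.0379, limma) and -0.31 at 3 weeks (adjusted p = 0.0362), and both calls were lost without any of 5 single arrays, the value then lying between -0.35 and -0.25 at 1 week and between -0.33 and -0.26 at 3 weeks.

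HMGCS1, the synthase that makes HMG-CoA at the entry to the pathway, had different directions at low and high concentration at 1 week. At 1 week its log2 values were 10.13, 9.82 and 9.61 in controls, 10.57, 10.47 and 10.42 with CSE 1%, 9.01, 9.07 and 9.14 with CSE 5%, and 9.18, 9.52 and 9.36 with CSE 10%. The arrays of CSE 1% all lay above the controls and those of 5% and 10% all below them. The log2 fold changes were 0.63 ± 0.13 (SE, adjusted p = 0.00224, limma), -0.78 (adjusted p = 8.31e-05) and -0.50 (adjusted p = 0.00632), and the call at 10% was lost without replicate 1 of the controls (-0.36, adjusted p = 0.0613) or replicate 1 of CSE 10% (-0.41, adjusted p = 0.0505). At 3 weeks HMGCS1 was higher with CSE 1% (0.77, adjusted p = 0.000107), not called with CSE 5% (-0.11) and lower with CSE 10% (-0.56, adjusted p = 0.00142). At 5 weeks it was higher with CSE 1% (0.67 against the 5-week controls and 0.66 against those of weeks 1 and 3) and also with CSE 5% (0.42 and 0.41), and not called with CSE 10% (-0.23 and -0.24). The call with CSE 5% against the 5-week controls was lost without replicate 1 of those controls (0.30, adjusted p = 0.0683). IDI1, which isomerises isopentenyl diphosphate, was lower at 1 week with CSE 5% (-0.94, adjusted p = 0.0008) and CSE 10% (-0.71, adjusted p = 0.00811), in controls that spread from 9.83 to 10.68. Without control replicate 1 the difference of IDI1 with CSE 10% was -0.50 and no longer called (adjusted p = 0.0763).

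In the steps through squalene to cholesterol, 8 of the 9 genes read were lower with CSE 10% at 1 week (11.3% of all genes), the exception being SC5D. The median of -1.02 was the lowest of the 4 role groups in that comparison. DHCR7, the reductase of the last step to cholesterol, had log2 values of 9.49, 9.37 and 9.19 with CSE 10% at 1 week, against 10.94, 10.82 and 11.12 in controls. EBP, an isomerase of the sterol ring, read 8.07, 7.97 and 7.99 with CSE 10%, against 9.42, 9.38 and 9.68 in controls. For both genes the groups were more than 1 log2 unit apart with no overlap, and the log2 fold changes were -1.61 ± 0.122 for DHCR7 (SE, adjusted p = 4.07e-11, limma) and -1.48 ± 0.113 for EBP (adjusted p = 4.73e-11). SQLE, the epoxidase that acts on squalene, changed by -1.23 (adjusted p = 1.97e-09), with 9.56, 9.71 and 9.48 with CSE 10% against 11.08, 10.73 and 10.63 in controls.

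MSMO1, which takes methyl groups from the ring, changed by -1.05 with CSE 10% at 1 week (adjusted p = 3.04e-06, limma), and CYP51A1, the lanosterol demethylase, by -1.02 (adjusted p = 2.87e-07). CYP51A1 had a second cluster of its own, which gave the same value of -1.02 at that comparison. NSDHL, a partner of MSMO1 in the same removal, changed by -0.93, LSS, which closes the ring to lanosterol, by -0.88, and TM7SF2, a sterol reductase, by -0.83. SC5D, the desaturase before DHCR7, was the only member of this group with a log2 fold change above 0 in that comparison. Its arrays read 9.30, 9.47 and 9.55 with CSE 10% at 1 week and 9.72, 9.58 and 8.82 in controls, so the groups overlapped and no difference was called (0.067 ± 0.285, adjusted p = 0.915).

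Among the regulators, 3 of 6 were lower with CSE 10% at 1 week (11.3% of all genes): SREBF1 (-0.67, adjusted p = 5.48e-05, limma), INSIG1 (-0.55, adjusted p = 2.94e-06) and SCAP (-0.46, adjusted p = 0.0156). SREBF1 read 8.53, 8.33 and 8.24 with CSE 10%, against 8.92, 9.03 and 9.15 in controls, without overlap. SREBF2 read 9.39, 9.32 and 9.01 with CSE 10% against 9.48, 9.53 and 9.60 in controls, a difference of -0.29 (95% interval -0.52 to -0.063) that was not called (adjusted p = 0.0751). The call of SCAP, the escort protein, whose controls spread from 8.61 to 9.06, was lost without control replicate 3 (-0.34, adjusted p = 0.141) or without replicate 2 or 3 of CSE 10% (-0.44 and -0.41).

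INSIG1, the anchor of SCAP that is itself a target of SREBP1 and SREBP2, had the clearest change of direction with concentration. At 1 week it read 9.12, 9.02 and 8.95 in controls, 9.88, 9.95 and 9.95 with CSE 1%, 7.80, 8.15 and 8.09 with CSE 5%, and 8.55, 8.54 and 8.36 with CSE 10%. The 4 groups did not overlap, and CSE 5% lay below CSE 10%. At 3 weeks it read 9.96, 9.84 and 9.87 in controls, 10.59, 10.57 and 10.57 with CSE 1%, 9.39, 9.37 and 9.39 with CSE 5%, and 9.46, 9.36 and 9.31 with CSE 10%. The log2 fold changes were 0.90, -1.02 and -0.55 at 1 week and 0.69, -0.51 and -0.51 at 3 weeks for 1%, 5% and 10%, each with an SE of 0.0758 and the highest adjusted p being 1.07e-05 (limma). INSIG1 differed from its paralog INSIG2, which also anchors SCAP but is under less direct sterol control. INSIG2 read 8.66, 8.60 and 8.67 with CSE 10% at 3 weeks, against 7.93, 7.64 and 7.76 in controls, a log2 fold change of 0.87 ± 0.141 (SE, adjusted p = 2.52e-05), and was also higher with CSE 5% (0.92, adjusted p = 1.42e-05) and CSE 1% (0.48, adjusted p = 0.0217). The call with CSE 1% was lost without any of 4 single arrays, with values between 0.36 and 0.49, and in a separate fit of that comparison. At 1 week no difference of INSIG2 was called, with 0.048 at 10%.

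STARD4, which carries cholesterol between membranes, was lower with CSE 5% at 1 week, with 7.03, 7.10 and 7.33 against 8.38, 8.14 and 7.46 in controls. That call (-0.84 ± 0.218, SE, adjusted p = 0.00963, limma) was lost without control replicate 1 (-0.65, adjusted p = 0.0704) or replicate 1 of CSE 5% (-0.78, adjusted p = 0.0527). With CSE 10% the difference of STARD4 was -0.43 and was not called (adjusted p = 0.203).

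**Figure D2:**
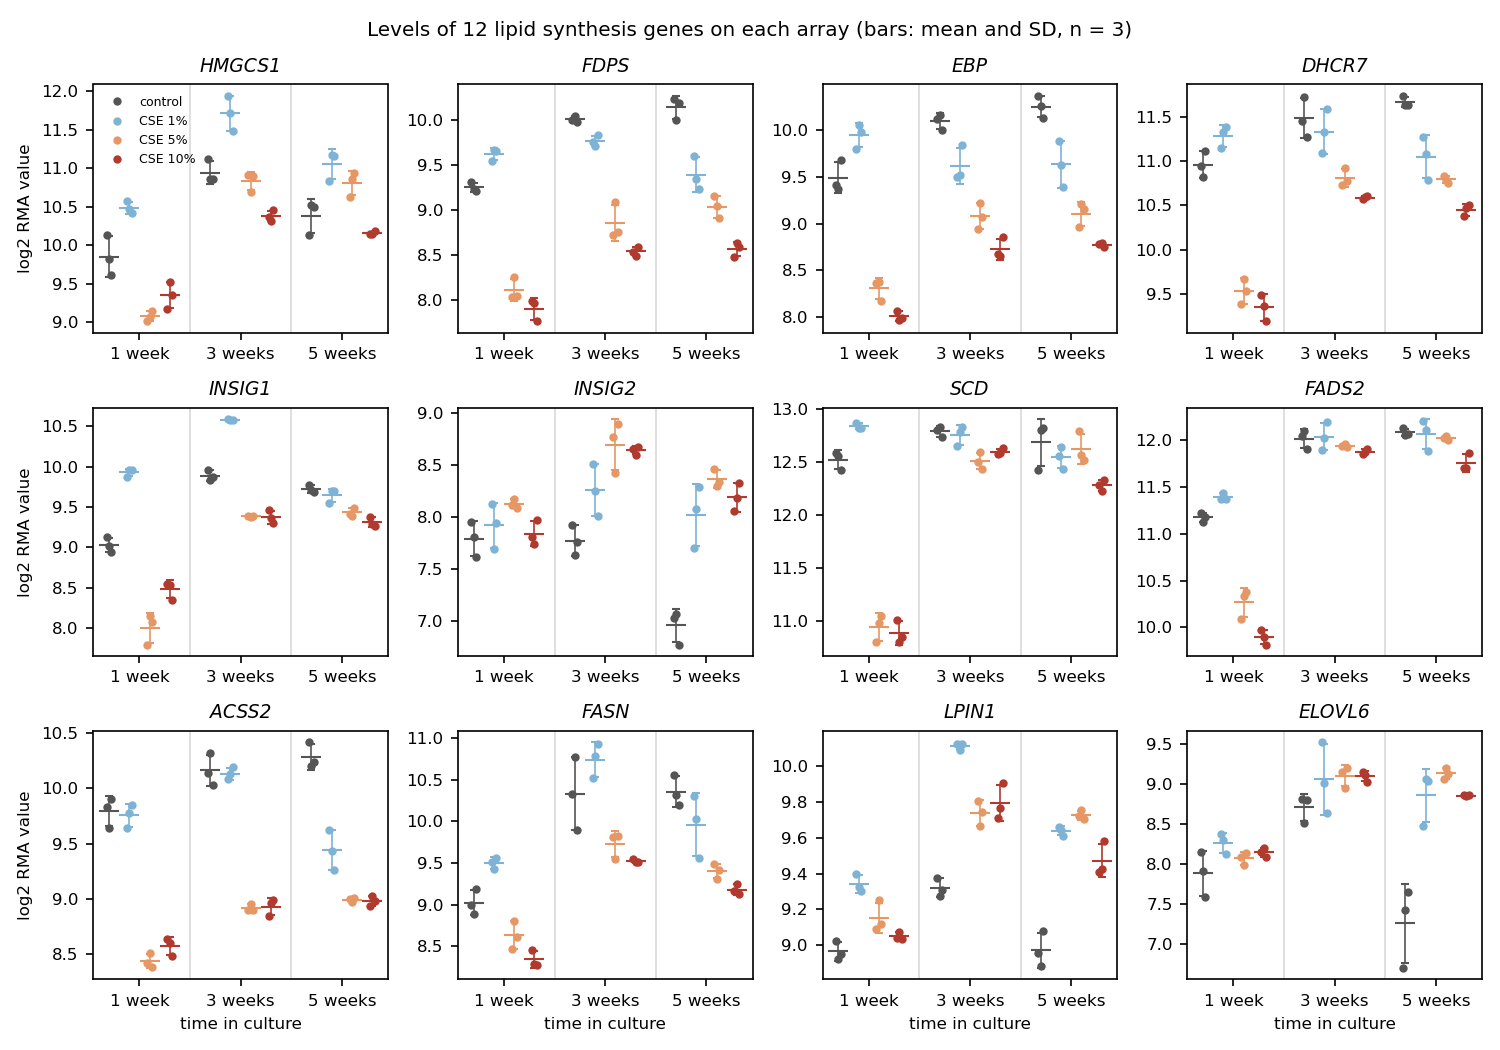
Log2 RMA value (vertical axis, own scale for each gene) of 12 of the genes on every array, by time in culture and concentration (control, then CSE 1%, 5% and 10% from left to right within each time). Points are arrays, and the horizontal mark and bar are mean and SD (n = 3). SCD and FADS2 with CSE 5% and 10% lie far below the controls at 1 week, while ACSS2, FDPS and EBP lie below them at 1 and 3 weeks, and INSIG2 and LPIN1 lie above them at 3 weeks.

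Of the 10 fatty acid and lipid genes, 8 were lower with CSE 10% at 1 week (11.3% of all genes) and 5 at 3 weeks (15.5%). SCD, which puts the first double bond into saturated fatty acids, had the largest fall of any member, with log2 values of 11.02, 10.81 and 10.85 with CSE 10% at 1 week against 12.59, 12.56 and 12.43 in controls. FADS2, a desaturase of polyunsaturated fatty acids, read 9.97, 9.90 and 9.82 against 11.22, 11.12 and 11.18. The differences were -1.63 ± 0.0917 for SCD (SE, adjusted p = 7.29e-14, limma) and -1.28 ± 0.0822 for FADS2 (adjusted p = 1.29e-12), both well outside the spread of the arrays. FADS1, which acts after FADS2, changed by -0.88 (adjusted p = 3.34e-10).

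At 3 weeks SCD and FADS2 with CSE 10% were not called. SCD read 12.58, 12.59 and 12.63 with CSE 10% and 12.81, 12.84 and 12.74 in controls (-0.19, 95% interval -0.38 to -0.0045, adjusted p = 0.129, limma). With CSE 5% SCD was still lower, with 12.51, 12.59 and 12.44 (-0.28, adjusted p = 0.0294), a call lost without any of 4 single arrays, with values between -0.28 and -0.24. FADS2 read 11.85, 11.87 and 11.91 with CSE 10% and 12.04, 12.10 and 11.90 in controls (-0.14, adjusted p = 0.239). ACSS2, which activates acetate, was unlike them. Its log2 values were 8.64, 8.61 and 8.48 with CSE 10% at 1 week, against 9.83, 9.64 and 9.90 in controls, and 8.85, 8.96 and 8.99 at 3 weeks, against 10.14, 10.31 and 10.03. The log2 fold changes of ACSS2 with CSE 10% were -1.21 and -1.23, each with an SE of 0.0862, and at neither time did its groups overlap.

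FASN, the fatty acid synthase, read 8.46, 8.29 and 8.28 with CSE 10% at 1 week, against 8.99, 8.89 and 9.18 in controls (-0.68, adjusted p = 0.00306, limma), and changed by -0.81 at 3 weeks (adjusted p = 0.000327). The other genes of the first steps changed less with CSE 10% at 1 week: ACACA, the acetyl-CoA carboxylase, by -0.42, ACLY by -0.40, and AACS, which activates acetoacetate, by -0.49, all called lower. ELOVL6, which lengthens palmitate, and LPIN1, a phosphatase on the way to triglycerides, were the members of this group that were not lower in that comparison. LPIN1 read 9.71, 9.76 and 9.90 with CSE 10% at 3 weeks, against 9.38, 9.27 and 9.31 in controls (0.47 ± 0.0649, SE, adjusted p = 2.09e-06). ELOVL6 read 9.15, 9.12 and 9.03 against 8.82, 8.52 and 8.81, a difference of 0.39 that was not called (adjusted p = 0.138).

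At 3 weeks 18 of the 31 members were lower with CSE 10% (15.5% of all genes) and 2, INSIG2 and LPIN1, were higher (15.3%), with a median of -0.43 over the members, against 0.0031 over all genes. With CSE 5%, 15 were lower (12.5% of all genes) and the same 2 higher (12.8%), with a median of -0.28. By the rule of the study, 4 were lower with CSE 10% (1.48% of all genes) and 3 with CSE 5% (0.771%). All 18 genes that were lower with CSE 10% at 3 weeks were among the 25 of 1 week, which is 100% of the 18 and 72% of the 25. The 7 genes lower at 1 week and not called at 3 weeks were IDI1, TM7SF2, MSMO1, SREBF1, ACACA, SCD and FADS2. With CSE 5%, 12 were lower at both times, 60% of the 20 at 1 week and 80% of the 15 at 3 weeks. How many of all genes kept a call between these times was not counted. With 25 of the 31 members lower with CSE 10% at 1 week, a large overlap was likely beforehand.

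The difference between the weeks was tested directly, as the effect of CSE at 3 weeks minus that at 1 week. With CSE 10%, 12 members had an effect that was higher at 3 weeks (5.83% of all genes) and none a lower one, and with CSE 5%, 10 members had a higher one (2.44%) and none a lower one. Among all 18417 genes, 1128 had a lower effect at 3 weeks with CSE 10% and 397 with CSE 5%. For SCD the effect moved by 1.44 with CSE 10% (adjusted p = 1.03e-08, limma) and by 1.30 with CSE 5% (adjusted p = 2.34e-07). For FADS2 it moved by 1.14 and 0.83, for MSMO1 by 0.77 and 0.87, for TM7SF2 by 0.78 and 0.79, and for DHCR7 by 0.72 and 0.76, in the same order of concentrations. The differences of FDPS, EBP, MVK, MVD and ACSS2 between the weeks were not called at 5% or 10%. Over the 31 members the log2 fold changes of 1 and 3 weeks, which rest on separate control arrays, had a Pearson correlation of 0.698 with CSE 10%, 0.664 with CSE 5% and 0.509 with CSE 1%, as a description across genes, which are not independent replicates.

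**Figure D3:**
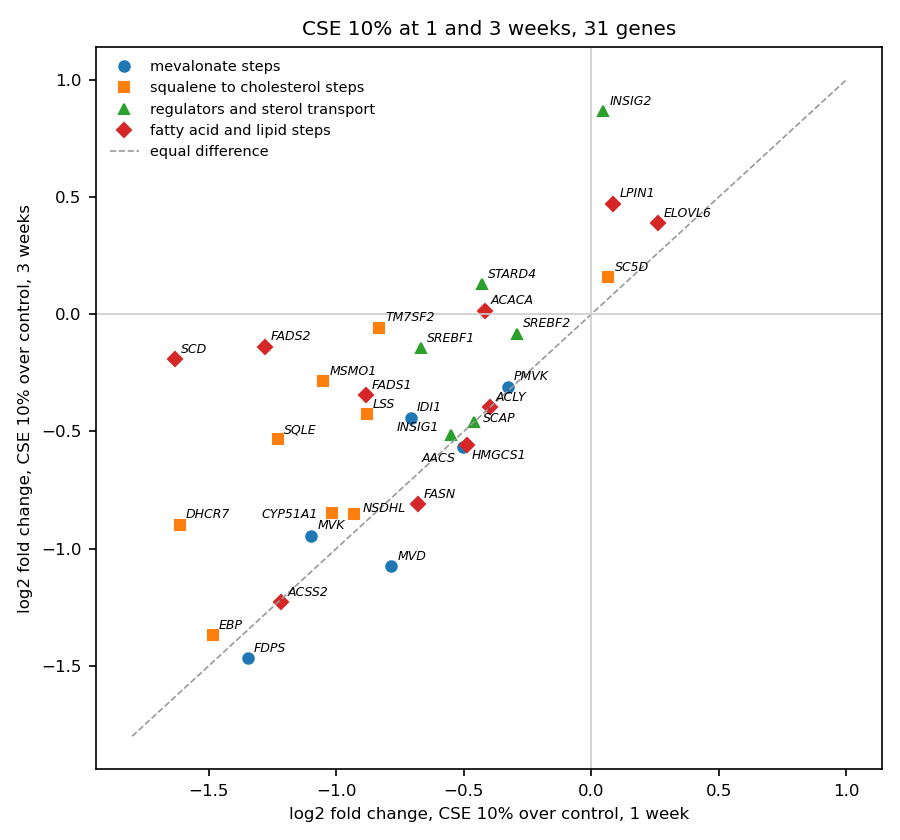
Log2 fold change of CSE 10% over control at 1 week (horizontal axis) and at 3 weeks (vertical axis) for the 31 genes, marked by role, with a dashed line of equal difference. FDPS, EBP and ACSS2 lie near the line at about -1.2 to -1.5 on both axes, while SCD and FADS2 lie at -1.63 and -1.28 at 1 week but at -0.19 and -0.14 at 3 weeks.

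CSE 1% gave the other direction at 1 week. With it, 6 members were higher (5.01% of all genes) and none lower (2.33%), with a median of 0.22: INSIG1 (0.90), HMGCS1 (0.63), EBP (0.45), FDPS (0.37), LPIN1 (0.37) and SCD (0.32). EBP read 9.80, 10.06 and 9.98 with CSE 1%, against 9.42, 9.38 and 9.68 in controls, without overlap, and was called with an adjusted p of 0.0137 (limma). The calls of EBP and FDPS were each lost without any of 4 single arrays, and that of SCD without any of 6, while those of INSIG1, HMGCS1 and LPIN1 were kept whichever array was left out. At 3 weeks 5 members were higher with CSE 1% (7.36% of all genes), namely LPIN1 (0.79), HMGCS1 (0.77), INSIG1 (0.69), INSIG2 (0.48) and ACACA (0.29), and 1, EBP, was lower (-0.48, adjusted p = 0.00437, with 7.28% of all genes lower). Without any of 5 single arrays the call of ACACA was lost, with values between 0.19 and 0.33, of which the lowest came without control replicate 3. LPIN1 was higher on every array, with 10.12, 10.09 and 10.12 with CSE 1% at 3 weeks against 9.38, 9.27 and 9.31 in controls. Between 1 and 3 weeks the effect of CSE 1% moved up for 1 member, LPIN1 (2.31% of all genes), and down for 2, EBP and FDPS (3.86%).

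Set against each other, CSE 10% differed in many members from CSE 1% and in few from CSE 5%. With CSE 10% against CSE 1%, 25 members were lower at 1 week (10.4% of all genes), 16 at 3 weeks (8.54%) and 16 at 5 weeks (7.05%), and none was higher at any of these times. Of all 18417 genes, 1130, 1385 and 976 were higher with CSE 10% than with CSE 1% at 1, 3 and 5 weeks. This comparison does not use the control arrays. At 1 week SCD differed by -1.95, DHCR7 and EBP by -1.94 each, and INSIG1 by -1.44 (adjusted p = 2.45e-14, limma). With CSE 10% against CSE 5%, 2 members were lower at 1 week (3.45% of all genes), FADS2 (-0.37) and ACLY (-0.31), and INSIG1 was higher (0.47, adjusted p = 0.000183). At 3 weeks none was lower (1.11% of all genes). At 5 weeks 5 were lower (2.7% of all genes), HMGCS1 (-0.65), FDPS (-0.47), LSS (-0.37), SCD (-0.34) and LPIN1 (-0.25).

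The level of these genes also moved in unexposed cells. In controls of 3 weeks against those of 1 week, 21 of 31 members were higher (6.52% of all genes) and none lower (5.65%), with a median of 0.45 and the largest changes in FASN (1.31), HMGCS1 (1.09), INSIG1 (0.86) and FADS2 (0.84). FASN read 10.33, 10.77 and 9.90 in controls of 3 weeks, against 8.99, 8.89 and 9.18 in those of 1 week. The exposed cells moved mostly the same way. With CSE 1%, 15 members were higher at 3 weeks than at 1 week (9.43% of all genes) and 1, EBP, was lower (-0.33, with 11% of all genes lower), with a median of 0.34. With CSE 10%, 27 members were higher at 3 weeks than at 1 week (13.3% of all genes), with a median of 0.80, and with CSE 5%, 26 were (9.21%), with a median of 0.75. The largest of these changes were FADS2 (1.98), SCD (1.71) and SQLE (1.48) with CSE 10%, and HMGCS1 (1.76), FADS2 (1.67) and SCD (1.57) with CSE 5%. With CSE 10% the genes FDPS, EBP and ACSS2 also stood higher at 3 weeks than at 1 week, by 0.64, 0.72 and 0.36, while the test of a changed distance from the controls of the same week called none of the 3.

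**Figure D4:**
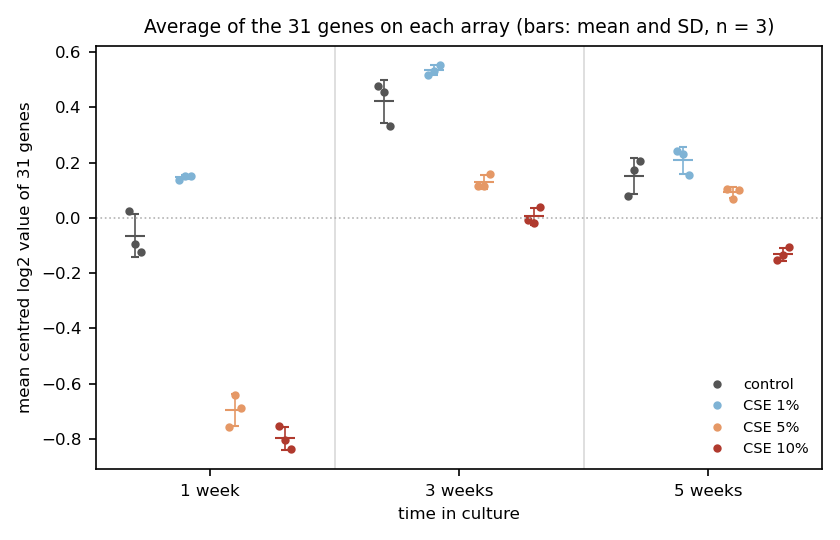
Average over the 31 genes of the log2 value centred on each gene's own mean over the 36 arrays (vertical axis), for each array, by time in culture and concentration (control, CSE 1%, 5% and 10% from left to right). Points are arrays, and the mark and bar are mean and SD (n = 3). At 1 week the averages are -0.065 in controls, 0.15 with CSE 1%, -0.70 with CSE 5% and -0.80 with CSE 10%, and at 3 weeks 0.42, 0.53, 0.13 and 0.0052 in the same order.

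Averaged over the 31 genes and centred on each gene's own mean, the arrays of 5% and 10% at 1 week lay between -0.84 and -0.64, below all other arrays. At 3 weeks the averages of CSE 10% lay between -0.018 and 0.04, close to those of the controls of 1 week, which lay between -0.12 and 0.024. The mean over all genes, centred in the same way, lay between -0.036 and 0.017 in every group.

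Between 3 and 5 weeks with CSE 1%, 12 members were lower at 5 weeks than at 3 weeks (3.21% of all genes) and none higher, with a median of -0.29, among them INSIG1 (-0.93), FASN (-0.78), ACSS2 (-0.69) and HMGCS1 (-0.66). Among all 18417 genes, 503 were higher in that comparison. With CSE 5% no member was lower at 5 weeks than at 3 weeks (0.331% of all genes), and with CSE 10%, 3 were (2.67%), namely ACACA (-0.35), SCD (-0.32) and LPIN1 (-0.32). The controls named 5 weeks differed from those of 3 weeks in much of the array: 13 members were lower (27.8% of all genes) and 1, SCAP, was higher (28.3%). The members furthest from the controls of 3 weeks were SC5D, ELOVL6 (-1.45) and IDI1 (-1.09). Replicate 1 of this group stood apart from replicates 2 and 3 in several members: SC5D read 7.33 against 8.65 and 8.71, IDI1 9.39 against 10.07 and 10.09, and MSMO1 11.16 against 11.91 and 11.91.

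Against the 5-week controls, 18 members were lower with CSE 10% (40.9% of all genes) and 6 higher (27.9%), 13 lower (40.9%) and 8 higher (29.5%) with CSE 5%, and 10 lower (32.9%) and 9 higher (26.9%) with CSE 1%. With so large a share of all genes called, these counts say little about the members. Without control replicate 1 the numbers were 18 lower and 5 higher with CSE 10%, 13 and 6 with CSE 5%, and 8 and 6 with CSE 1%. The share of all genes was not counted without that array. Against the controls of weeks 1 and 3, CSE 10% at 5 weeks had 16 members lower (19.8% of all genes) and 3 higher (15.7%), CSE 5% had 12 lower (16.3%) and 5 higher (15.2%), and CSE 1% had 2 lower (9.91%) and 5 higher (9.01%).

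With CSE 10%, 14 genes were lower at 5 weeks by both sets of controls: MVK, PMVK, MVD, FDPS, LSS, NSDHL, EBP, DHCR7, SREBF1, SCAP, ACSS2, FASN, SCD and AACS. FDPS read 8.47, 8.63 and 8.59 with CSE 10% at 5 weeks, against 10.23, 9.99 and 10.19 in the 5-week controls, and changed by -1.57 against these and by -1.06 against the controls of weeks 1 and 3. ACSS2 changed by -1.30 and -0.99, EBP by -1.48 and -1.02, and MVD by -1.34 and -0.99, with the 5-week controls given before those of weeks 1 and 3. The 13 genes MVK, PMVK, MVD, FDPS, LSS, NSDHL, EBP, DHCR7, SCAP, INSIG1, ACSS2, FASN and AACS were lower with CSE 10% at each of the 3 times against the controls of the same week, and of these INSIG1 was not called at 5 weeks against the controls of weeks 1 and 3 (-0.15, adjusted p = 0.0816). INSIG2, ELOVL6 and LPIN1 were higher by both sets, ELOVL6 by 1.60 and 0.56, INSIG2 by 1.23 and 0.41, and LPIN1 by 0.50 and 0.33. SC5D and STARD4 were higher against the 5-week controls only (1.54 and 0.68), with 0.22 and -0.053 against the controls of weeks 1 and 3, and IDI1 changed sign, with 0.50 and -0.26. The share of all genes lower by both sets of controls, or lower at each of the 3 times, was not counted. Both comparisons at 5 weeks use the same CSE 10% arrays, so a call by both sets does not rest on separate exposed cultures.

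The change of effect between 1 and 5 weeks was tested with the 5-week controls only. It was upward for 16 members with CSE 10% (19.4% of all genes) and downward for 1, MVD (16%). With CSE 5% it was upward for 17 (20.9%) and downward for 1, SCAP (16.4%), and with CSE 1% it was upward for 3, INSIG2, ELOVL6 and LPIN1 (15.1%), and downward for 10 (10.5%). SCD moved by 1.23 with CSE 10% and 1.52 with CSE 5%. Between 3 and 5 weeks no difference in its own level was called with CSE 5%, while with CSE 10% it was lower at 5 weeks. With CSE 1% FDPS moved by -1.12 and EBP by -1.07.

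The genes whose 12 group means were most like the average of the members were sought among all genes. Outside the list these were ACAT2 (Pearson r = 0.962), which makes acetoacetyl-CoA, the substrate of HMGCS1, RFC3 (0.955), a subunit of the clamp loader of DNA replication, MELK (0.938), a kinase of dividing cells, EMP2 (0.935), an epithelial membrane protein, and PRC1 (0.935), which bundles the microtubules of the late spindle. Among the members the most alike were SQLE (0.987), LSS (0.978) and SREBF2 (0.952), which are part of the average they were set against, and the least alike were INSIG2 (0.016), SC5D (0.225), ELOVL6 (0.364) and PMVK (0.373). These are correlations over 12 group means from 36 arrays of the same cell line and describe likeness only.

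Of 15 other genes of sterol metabolism read, 4 were lower and 3 higher with CSE 10% at 1 week (11.3% and 11.6% of all genes), with a median of -0.049, and likewise 4 were lower and 3 higher at 3 weeks (15.5% and 15.3% of all genes), with a median of 0.026. ACAT2 read 6.81, 6.78 and 7.02 with CSE 10% at 1 week, against 8.92, 8.43 and 8.31 in controls, a log2 fold change of -1.68 (adjusted p = 1.87e-10, limma), and it changed by -1.55 at 3 weeks. Its direction with CSE 1% at 1 week was upward (0.53, adjusted p = 0.0174). NPC1, which exports cholesterol from lysosomes, was higher with CSE 10% at 1 week (0.30, adjusted p = 0.0238) and lower at 3 weeks (-1.02, adjusted p = 1.42e-09). SCARB1, a receptor for high-density lipoprotein, was lower with CSE 10% at 1 week (-0.64), as was TMEM97, a sterol-regulated membrane protein (-0.51), and at 3 weeks their differences were 0.053 and 0.011 and were not called. MBTPS1, the first protease to cleave SREBP, was higher at 3 weeks with CSE 10% (0.39, adjusted p = 0.000425).

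The liver X receptors sense oxidised sterols and work against the SREBP2 program by raising export genes. Of 4 genes of this group read, 3 were higher with CSE 10% at 3 weeks (15.3% of all genes) and none lower (15.5%), and 1 was higher (11.6%) and 1 lower (11.3%) at 1 week. ABCG1, a sterol exporter, differed by -0.28 at 1 week (adjusted p = 0.0909, limma) and by 0.82 at 3 weeks (adjusted p = 1.8e-06). MYLIP, a ubiquitin ligase that removes lipoprotein receptors, was higher by 0.24 at 1 week and by 0.87 at 3 weeks (adjusted p = 5.19e-10), and LPCAT3, which remodels phospholipids, by 0.28 at 3 weeks (adjusted p = 0.0309). NR1H3, which encodes a liver X receptor, changed by -0.88 with CSE 10% at 1 week (adjusted p = 1.77e-09) and had a difference of -0.18 at 3 weeks that was not called.

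Other genes of fatty acid and glycerolipid synthesis were mostly not called with CSE 10%: of 16 read, 1 was lower and 4 higher at 1 week (11.3% and 11.6% of all genes), and 2 lower and 3 higher at 3 weeks (15.5% and 15.3%). DGAT1, which makes triglycerides, was lower at both times (-0.92, adjusted p = 5.73e-07, and -0.67, adjusted p = 5.37e-05, limma). ME1 (0.41) and ACSL1 (0.38) were higher at 1 week, and SCD5 (0.37), a second stearoyl-CoA desaturase, and LPIN3 (0.37) at 3 weeks. Of 15 genes of fatty acid oxidation and lipid storage, 8 were lower and 2 higher at 1 week (11.3% and 11.6% of all genes), and 7 lower and 2 higher at 3 weeks (15.5% and 15.3%). CPT1A, the carrier that admits fatty acids to mitochondria, changed by -0.78 at 1 week (adjusted p = 1.84e-06), and PDK4 by -1.04 (adjusted p = 5.35e-09). PPARGC1A, a coactivator of mitochondrial genes, changed by -1.24 at 1 week and -1.93 at 3 weeks (adjusted p = 1.87e-09). PLIN2, which coats lipid droplets, was higher with CSE 10% at 1 week (0.59) and lower at 3 weeks (-0.62, adjusted p = 1.22e-05), its relative PLIN3 was lower at 3 weeks (-0.72, adjusted p = 1.96e-05), and PPARG, a lipid-sensing nuclear receptor, was higher at 1 week (0.67, adjusted p = 1.39e-07).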

How the data were processed

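RNA of A549 cells exposed to CSE or left unexposed was measured on 36 arrays, 3 for each of 12 groups, formed from the sample titles. The authors corrected the probe intensities for background and normalized them by RMA with the package oligo, and they deposited log2 values per transcript cluster. R 2.11.0, RMA and limma are named in the notes of the submitters, and no genome build was found in labels, methods or headers. Since RMA gives all arrays a like distribution, a shift shared by most genes would be lost, and the number of arrays limits the precision. The deposited values, from 2.29 to 14.5, were used with no filter, and no array was left out.

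Of the clusters, 19460 had 1 gene symbol in the platform annotation, 1754 had several and were not used, and 12083 had none. Where a gene had several clusters of its own, that with the highest mean was read. Group means were fitted to all arrays with limma 3.58.1 in R 4.3.3 (24 residual degrees of freedom), with empirical Bayes moderation and Benjamini-Hochberg adjustment over 33297 clusters, and a call is an adjusted p under 0.05. The members and lists were chosen with earlier results of these data known. The study describes 3 individual experiments, and the p-values measure the spread between those cultures. All members read were named, with up to 3 genes of each other lipid list by the smallest p for CSE 10% at 1 week and at 3 weeks, and 5 genes by likeness of group means. NPC1 and PPARGC1A at 1 week, and other such values of a named gene at the other time, are given for comparison. Data of 33297 clusters were simulated with a spread pooled over all groups, and the comparison of CSE 10% with control at 1 week was read. In it, 44% of 50 clusters raised by 0.5 and 48% of 50 lowered by 0.5 were called. The share was 100% of those changed by 1.5 either way, and 0.0393% of the unchanged ones. These shares thus do not reflect the spread of CSE 10% and control at 1 week alone. The alternatives were the rule of the study, cyclic loess, centring on housekeeping genes, a separate fit of each comparison, a block for the replicate number, the 60% brightest clusters, a trended and robust variance, the mean of a gene's clusters, other controls at 5 weeks, and leaving out each array.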

Additional observations from a re-analysis of the deposited data

Results flagged for a closer look

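The effect of CSE differed between 1 and 3 weeks, by the test of the difference itself in limma, for 10 members with CSE 5% and 12 with CSE 10%, always upward, and for 3 with CSE 1%. With CSE 10% the effect at 3 weeks minus that at 1 week was 1.44 for SCD, 1.14 for FADS2, 0.82 for INSIG2, 0.78 for TM7SF2, 0.77 for MSMO1, 0.72 for DHCR7, 0.70 for SQLE, 0.54 for FADS1, 0.52 for SREBF1, 0.45 for LSS, 0.43 for ACACA and 0.39 for LPIN1. With CSE 5% it was 1.30 for SCD, 1.09 for STARD4, 0.87 for MSMO1, 0.83 for FADS2, 0.79 for TM7SF2, 0.76 for DHCR7, 0.67 for HMGCS1, 0.63 for SQLE, 0.52 for INSIG1 and 0.50 for FADS1. INSIG2 and LPIN1 differ from the others in this list, since with CSE 10% they were not lower at 1 week and were higher at 3 weeks. With CSE 1% the difference was 0.42 for LPIN1, -0.61 for FDPS and -0.93 for EBP, so that EBP, higher at 1 week, was lower at 3 weeks. Between 1 and 5 weeks the effect differed for 13 members with CSE 1%, 18 with CSE 5% and 17 with CSE 10%, counts that rest on the 5-week controls. From 1% to 10%, 3, 17 and 16 of these moved upward, against 15.1%, 20.9% and 19.4% of all genes, and 10, 1 and 1 downward, against 10.5%, 16.4% and 16% of all genes.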

How the results depend on the processing

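Of 158 called differences of members from control, 106 kept direction and call in every alternative except the study's own rule. The leading counts were stable when single arrays were left out, with 19 to 20 members lower for CSE 5% and 22 to 25 for CSE 10% at 1 week, and 12 to 15 and 17 to 18 at 3 weeks. Leaving out single arrays gave 3 to 5 members higher with CSE 1% at 1 week and 3 to 5 at 3 weeks, and 0 to 2 higher in controls of 5 weeks against those of 3 weeks. Arrays of the same replicate number correlated above 0.1 in 10 of 27 pairs (from -0.339 to 0.6). All 3 pairs lay above 0.1 in 1 of 9 comparisons, CSE 1% against control at 5 weeks (0.47, 0.256 and 0.208). There the block left the counts at 9 higher and 10 lower. With CSE 1% at 1 week the pairs read 0.6, -0.235 and 0.179. These values do not decide whether replicate numbers pair the arrays. With the replicate block 157 of the 158 calls remained, with 5 members higher for CSE 1% at 1 week. By the rule of the study, 0 members were higher with CSE 1% at 1 and 3 weeks and 0 lower at 3 weeks, 8 were lower with CSE 5% and 10 with CSE 10% at 1 week, and 3 and 4 at 3 weeks with 0 higher. Of all 18417 genes, 69 and 114 were higher with CSE 1% at 1 and 3 weeks by that rule, and 73 lower at 3 weeks. With CSE 5% and CSE 10% at 3 weeks, 305 and 301 of all genes were higher by it. At 5 weeks that rule gave 3 higher at each concentration and 0, 3 and 7 lower from 1% to 10% against the 5-week controls, and 0 higher and 0, 0 and 2 lower against those of weeks 1 and 3. Of all 18417 genes, 832, 1836 and 1780 were higher and 95, 232 and 353 lower against the 5-week controls. The counts of members higher there thus say little about the members. Against the controls of weeks 1 and 3, 104, 326 and 259 of all genes were higher and 106, 168 and 235 lower. Separate fits gave 1 higher with CSE 1% at 1 week, 3 higher and 0 lower at 3 weeks, 4 higher and 5 lower at 5 weeks, and 11 higher in controls of 3 against 1 week and 0 in controls of 5 against 3 weeks. The 60% brightest clusters gave 1 higher with CSE 5% at 1 week and 2 lower with CSE 1% at 3 weeks, as did the trended and robust variance for CSE 1% at 3 weeks (2 lower). The 19 housekeeping genes moved by -0.13, -0.18 and -0.21 with 1%, 5% and 10% at 3 weeks. Centring on them shifts every gene upward in these comparisons. It left 11 members lower with CSE 5% and 14 with CSE 10% at 3 weeks (HMGCS1, PMVK, SCAP and FADS1 were lost with CSE 10%). Centring also gave 9 members higher with CSE 1% and 4 with CSE 5% at 3 weeks. In controls of 5 against 3 weeks it gave 6 higher, and cyclic loess gave 7. For the alternatives other than the study's rule and the other controls at 5 weeks, the share of all genes called was not counted. Against the controls of weeks 1 and 3, members higher at 5 weeks numbered 5, 5 and 3 from 1% to 10%, with 2 lower at 1%. These controls turned the sign of IDI1 (-0.092, -0.065 and -0.26 from 1% to 10%), of STARD4 (-0.022 with 1% and -0.053 with 10%), of FASN with 1% (0.29) and of FADS2 with 10% (0.16). The cause of these changes was not tested. With 3 arrays a group and an SE near 0.1, members not called may still differ. Differences of 0.5 were called in 44% to 48% of simulated cases. Far fewer clusters were changed there, so that share does not carry over to these data.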
